A study of Mus musculus with 6 samples.

Results

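The KDM2, KDM3 and KDM4 demethylases are nuclear enzymes that remove methyl groups from lysines of histone H3, and 9 genes encode the mouse enzymes considered here: *Kdm2a*, *Kdm2b*, *Kdm3a*, *Kdm3b*, *Jmjd1c*, *Kdm4a*, *Kdm4b*, *Kdm4c* and *Kdm4d*. They were chosen by name, not by their values, though with earlier results of these data known. They make up 9 of 19938 named genes measured. Where the array held several features (transcript clusters) for a gene, that with the highest mean over the 6 arrays was taken. Expression was compared between control cells and cells in which *Paupar*, a long noncoding RNA from the *Pax6* locus, had been targeted, to ask which transcripts depend on *Paupar*. All cells were N2A, a mouse neuroblastoma line grown with 10% serum. The control group (3 cultures) was transiently transfected with a non-targeting vector and the *Paupar* knockdown group (3 cultures) with one encoding a *Paupar* hairpin, each at 1.5 µg, and total RNA was taken after 2.5 days and hybridised to 1 whole-transcript array per culture. The hairpin is transcribed from a U6 promoter in the study's vectors, and transient transfection leaves some cells without vector, so each RNA is that of a mixed culture. In such bulk RNA, fewer cells of a type and less RNA per cell cannot be told apart. *Paupar* itself was not analysed here, so the knockdown was not checked on these arrays.

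All these enzymes share the JmjC fold, which uses iron, oxygen and 2-oxoglutarate to oxidise the methyl group. Methylated H3K9 is bound by HP1 proteins and marks silent chromatin, while methylated H3K36 lies over gene bodies or, in its lower forms, between genes. KDM2 enzymes act on H3K36me1 and H3K36me2, KDM3 enzymes on H3K9me1 and H3K9me2, and KDM4 enzymes on the trimethylated and dimethylated forms, at H3K9 and, for most, at H3K36. *Kdm3a*, *Kdm4b* and *Kdm4c* are known as targets of hypoxia-inducible factors.

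The deposited log2 values had medians between 7.40 and 7.47 over all clusters of an array, and arrays of 1 group correlated at 0.994 or more. Of 10 markers of sympathetic neuroblasts, 8 were measured and 0 of these lay below the series median. Their mean log2 value was 11.2 on every control array and from 10.8 to 10.9 on the knockdown arrays. All 8 were lower in knockdown cells (median difference −0.21, against 0.03 over all genes). Of the 7 that passed the filter on variation described below, 2 (*Th* and *Dbh*) fell in limma, against 5.16% of all genes tested. Of glial markers 5 of 5 measured lay below the series median, of fibroblast markers 5 of 7 and of blood and endothelial markers 6 of 7. The mean over each of those 3 lists ran from 6.66 to 7.06 in control and from 6.75 to 7.07 in knockdown cells. Of their genes 0 glial, 5 fibroblast and 3 blood and endothelial markers passed that filter, and 0 of these were called. No glial marker could thus be called, and few of the others. The part of these shifts in the results below was not tested. Precision is limited by having 3 arrays in each group.

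None of the 9 demethylase genes changed past the threshold. Only *Kdm4b* and *Kdm4d* varied enough between arrays to pass the filter on variation that precedes the test, and 0 of these 2 had a Benjamini-Hochberg adjusted p under 0.05 in limma, whereas 7.54% of the 9969 genes tested did (238 rose and 514 fell). In the limma fit to all 19938 genes, with no such filter, 0 of 9 passed either. There 2 of 9, *Kdm2b* and *Kdm4b*, had an unadjusted p under 0.05, against 18.4% of all genes, and in the limma fit after the filter 0 did. The control and knockdown values of these same 2 genes did not overlap, against 23.5% of all genes. With 9 genes, 2 is close to both background shares.

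What the arrays show about these genes is therefore mainly how small a difference they leave room for. The difference is the mean log2 value in knockdown cells minus that in control cells. In the fit to all genes and 6 arrays, its 95% confidence interval lay between −0.41 and 0.47 for each of the 9. That is within 0.5 (1.41-fold) in either direction. For 4 (*Kdm3a*, *Kdm3b*, *Kdm4a* and *Kdm4c*) the interval lay within 0.25 (1.19-fold). The smallest difference among the 752 called genes was 0.39 in size. The median size of the difference was 0.079 over the 9 genes and 0.107 over all named genes. The standard errors, 0.077 to 0.0999, had a median of 0.087, against 0.097 over all genes.

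**Figure D1:**
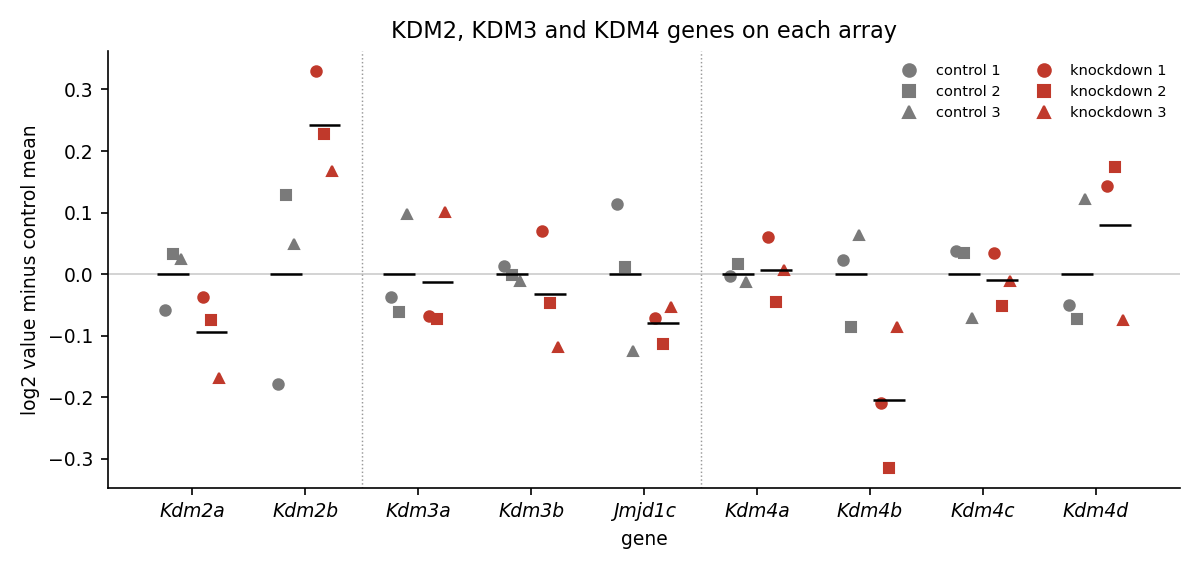
Log2 value of each of the 9 genes per array, given relative to the control mean of that gene (y axis), by gene (x axis). Grey points are the 3 control and red points the 3 knockdown arrays, marker shapes give the replicate number and bars the group means. All 3 knockdown points of *Kdm2b* lie above its control points, those of *Kdm4b* lie below with almost no gap, and the groups of the other 7 genes overlap.

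**Figure D2:**
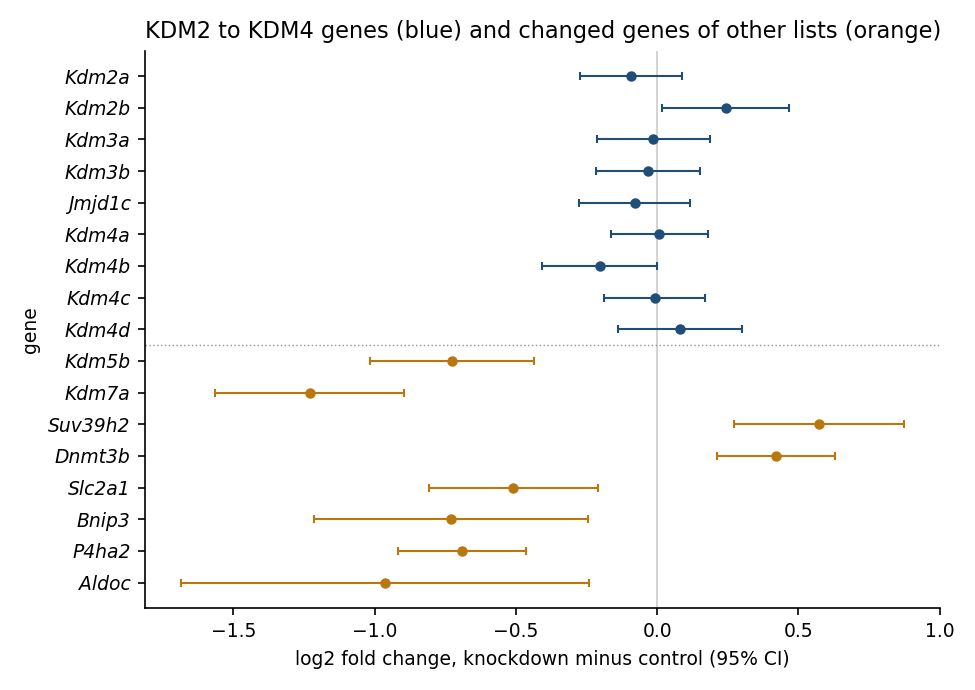
Difference between knockdown and control on the log2 scale (x axis) with its 95% confidence interval, for the 9 demethylase genes (blue) and for the genes of the other lists that passed the test (orange). The blue intervals lie between −0.41 and 0.47, and those of *Kdm2b* and *Kdm4b* alone among the 9 leave out 0. All intervals are from the fit to all genes.

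*Kdm2b* and *Kdm2a* encode the H3K36 demethylases with a CXXC zinc finger, which binds DNA at unmethylated CpG. The longer forms of both enzymes carry the demethylase domain and shorter forms from internal starts lack it. KDM2B also brings the PRC1.1 complex, which ubiquitinates histone H2A, to CpG islands. RefSeq lists 2 separate starts for *Kdm2b* in the table used here, 88732 bases apart on the minus strand of chromosome 5. The 100 bases upstream of each are shown because they belong to the gene of the largest difference and hold the dinucleotide that its product binds when unmethylated. CpG is in capitals, 10 at the first start and 12 at the second.
Kdm2b start 1, chr5:122989100-122989199 (GRCm38.p6, minus strand): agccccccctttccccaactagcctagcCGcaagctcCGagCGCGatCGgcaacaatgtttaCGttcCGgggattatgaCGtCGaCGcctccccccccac
Kdm2b start 2, chr5:122900368-122900467 (GRCm38.p6, minus strand): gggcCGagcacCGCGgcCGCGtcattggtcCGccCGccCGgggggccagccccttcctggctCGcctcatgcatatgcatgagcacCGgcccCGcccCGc
The 250 bases upstream hold 27 and 36 CpG, against a median of 6 over 32851 RefSeq windows of that length. Windows with 20 or more make up 17.9% of these. The array gave a single cluster for *Kdm2b*, so the starts were not separated.

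*Kdm2b* had log2 values of 8.91, 9.21 and 9.13 on control arrays 1 to 3 and of 9.41, 9.31 and 9.25 on knockdown arrays 1 to 3. The lowest knockdown array was 0.038 above the highest control array, and control array 1 lay below the other controls. The difference was 0.24 ± 0.10 (SE, n = 3 and 3; 95% interval 0.02 to 0.47), which is 1.18-fold (1.01 to 1.38), with an unadjusted p of 0.0371 and an adjusted p of 0.233 in the limma fit to all genes. The interquartile range of *Kdm2b*, 0.144, was just under the limit of the filter, 0.149. Leaving out 1 array at a time gave the lowest difference, 0.15, without control array 1, and the unadjusted p under 0.05 was lost there and without control array 3, knockdown array 1 or knockdown array 2.

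*Kdm2a* (chromosome 19), whose product acts on the same H3K36 marks, had log2 values of 10.35, 10.44 and 10.43 in control and of 10.37, 10.33 and 10.24 in knockdown cells. Knockdown array 3 was the lowest, and the groups overlapped. The difference was −0.093 ± 0.08 (SE; 95% interval −0.27 to 0.09) with an adjusted p of 0.591 in limma.

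*Kdm3a*, *Kdm3b* and *Jmjd1c* encode the enzymes for H3K9me1 and H3K9me2. KDM3A is also known from sperm development and from metabolic regulation, and JMJD1C from stem cell renewal and blood cancers. *Kdm3a* (chromosome 6) had log2 values of 10.62, 10.59 and 10.75 in control and of 10.59, 10.58 and 10.76 in knockdown cells, nearly the same triplet in both groups. The difference was −0.013 (95% interval −0.21 to 0.19, limma adjusted p = 0.955), an interval that reaches no further than 1.19-fold. *Kdm3b* (chromosome 18) had 10.43, 10.41 and 10.40 in control and 10.49, 10.37 and 10.30 in knockdown cells. The knockdown arrays of *Kdm3b* lay on both sides of the closely spaced control arrays, with a difference of −0.032 (95% interval −0.22 to 0.15, limma adjusted p = 0.876).

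*Jmjd1c* (chromosome 10) was measured by 2 clusters. The one with the higher mean gave 10.64, 10.54 and 10.40 in control and 10.45, 10.41 and 10.47 in knockdown cells, where the control arrays were more spread than the knockdown arrays and overlapped them. Its difference was −0.079 (95% interval −0.28 to 0.12, limma adjusted p = 0.679). The second cluster gave 9.92, 9.88 and 9.94 in control and 9.84, 9.82 and 9.95 in knockdown cells, a difference of −0.05. All 3 genes of the KDM3 group thus had differences below 0, with intervals that all hold 0. Of 16 alternative settings, the sign turned in 4 for *Kdm3a*, 2 for *Kdm3b* and 0 for *Jmjd1c*.

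*Kdm4a*, *Kdm4b* and *Kdm4c* encode long KDM4 enzymes with PHD and Tudor domains, and *Kdm4d* a short one without them. *Kdm4a* (chromosome 4) gave 10.40, 10.42 and 10.39 in control and 10.46, 10.36 and 10.41 in knockdown cells, so that the knockdown arrays surrounded the controls. Its difference of 0.0073 (95% interval −0.16 to 0.18, limma adjusted p = 0.970) was the smallest of the 9. *Kdm4c*, also on chromosome 4, gave 8.93, 8.93 and 8.82 in control and 8.93, 8.85 and 8.89 in knockdown cells, with a difference of −0.0092 (95% interval −0.19 to 0.17, limma adjusted p = 0.965).

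*Kdm4b* (chromosome 17) gave 9.14, 9.03 and 9.18 in control and 8.91, 8.80 and 9.03 in knockdown cells. Knockdown array 3 and control array 2 differed by only 0.000283, so the groups touched rather than stood apart. The difference was −0.20 ± 0.09 (SE, n = 3 and 3; 95% interval −0.41 to −0.0014), a level 13.2% lower, with an unadjusted limma p of 0.0487 in the fit to all genes. After the filter, which *Kdm4b* passed, the SE was 0.119, with an unadjusted limma p of 0.108 and an adjusted p of 0.280. *Kdm4d* (chromosome 9) gave 6.11, 6.09 and 6.28 in control and 6.30, 6.33 and 6.09 in knockdown cells. In each group 1 array lay with the other group, and the difference was 0.08 (95% interval −0.14 to 0.30), with a limma adjusted p of 0.702 after the filter. *Kdm4d* was the only 1 of the 9 that an alternative filter on dim genes removed.

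Genes of 1 subfamily share a substrate, so the change of the difference between them was computed within each array for all 10 such pairs. These comparisons were added after the values had been seen. On each array the log2 value of *Kdm2a* was subtracted from that of *Kdm2b*, which gave −1.45, −1.23 and −1.30 in control and −0.96, −1.02 and −0.99 in knockdown cells. The means were −1.33 ± 0.11 and −0.99 ± 0.03 (SD, n = 3 each), and the groups did not overlap. The means differed by 0.34, with a two-sided exact permutation p of 0.1 and 0.667 after adjustment over the 10 pairs. This did not pass the threshold, and 3 arrays against 3 allow no p below 0.1, so the value is a description. With any 1 array left out it was between 0.28 and 0.38. The values say nothing of which gene is the more abundant, since each cluster has its own probes.

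The other 9 pairs overlapped between groups, so 1 of 10 pairs did not. The share was 23.5% for single genes, which is not a like comparison, and it was not computed for pairs of other genes. Relative to *Kdm4a*, *Kdm4b* changed by −0.21 (exact permutation p = 0.2). *Kdm4c* relative to *Kdm4b* changed by 0.19 (exact permutation p = 0.2) and *Kdm4d* relative to *Kdm4b* by 0.28 (exact permutation p = 0.3). The 3 pairs of the KDM3 group changed by −0.02, −0.07 and −0.05, with exact permutation p-values of 0.8, 0.6 and 0.7.

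**Figure D3:**
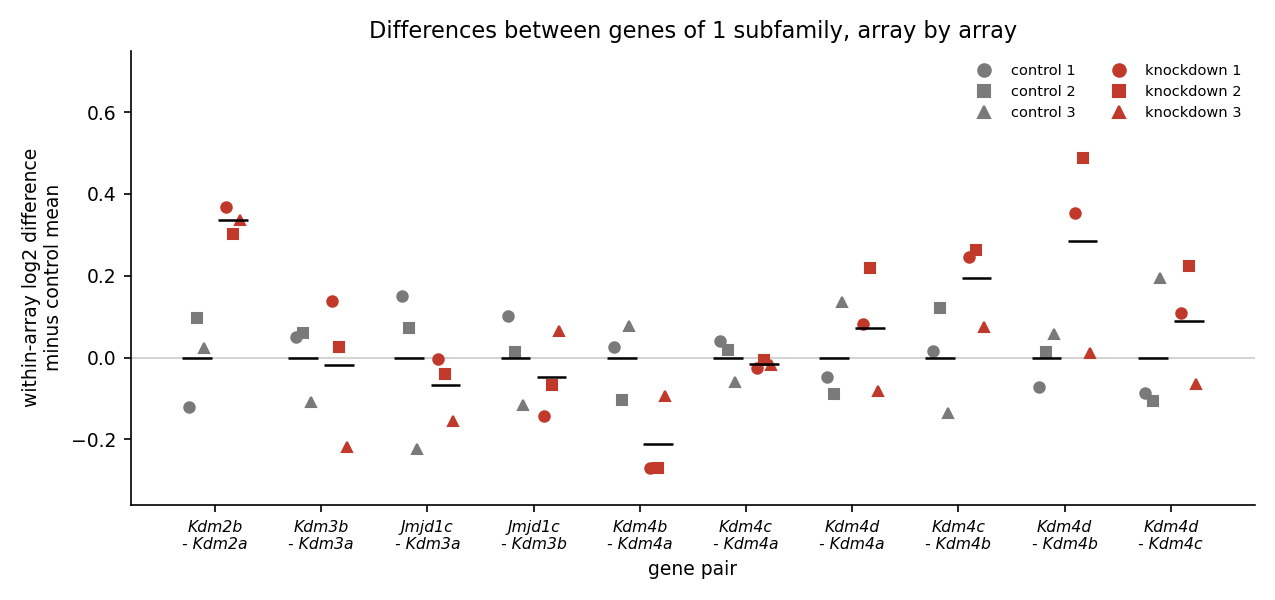
Within-array difference between the log2 values of 2 genes of a subfamily, relative to the control mean (y axis), for 10 pairs (x axis), with control arrays in grey, knockdown arrays in red and group means as bars. The groups of *Kdm2b* minus *Kdm2a* do not overlap (means 0.34 apart, exact permutation p = 0.1, adjusted p = 0.667), and those of the other 9 pairs do.

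PRC1.1, the complex that KDM2B recruits, was measured through 10 listed partner genes. Of these 4 passed the filter and 0 rose or fell in limma, 0 also had an unadjusted p under 0.05, and 8 of 10 had differences below 0 (median −0.08, range −0.21 to 0.10), against a median of 0.03 over all genes. The positive difference of *Kdm2b* thus stood beside mostly negative ones among its partners, none past the test.

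Called genes among the other enzymes and proteins of the same marks are counted below out of those that passed the filter. There 2.39% of all genes rose and 5.16% fell in limma. The lists were chosen with earlier results of these data known, so the counts are a description. Of 23 other histone demethylases and JmjC proteins measured, 6 passed the filter, and of these 0 rose and 2 fell. *Kdm7a*, whose product removes H3K9me2 and H3K27me2, fell by 1.23 (95% interval −1.56 to −0.89, limma adjusted p = 0.00144). *Kdm5b*, whose product removes methyl groups from H3K4, fell by 0.73 (95% interval −1.02 to −0.43, limma adjusted p = 0.00945), a call lost without control array 1, control array 3 or knockdown array 2. Both intervals lie wholly below those of the 9 genes described above. The difference between these genes and the 9 was not tested.

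Among 6 H3K9 methyltransferase genes measured, which place the mark that KDM3 and KDM4 enzymes remove, 3 passed the filter, of which 1 rose and 0 fell. It was *Suv39h2*, which trimethylates H3K9, with log2 values of 8.47, 8.98 and 8.96 in control and 9.44, 9.38 and 9.31 in knockdown cells. It rose 1.49-fold (difference 0.57, 95% interval 0.27 to 0.87, limma adjusted p = 0.0297), though the call was lost without control array 1 or 3 or knockdown array 1 or 2, and with no filter on variation. Of 7 readers and partners of H3K9 methylation 4 passed the filter and 0 were called. In the limma fit to all genes 4 of 7 had an unadjusted p under 0.05, against 18.4% of all genes. All 7 had differences above 0 (median 0.19), where the median over all genes was itself above 0 (0.03). Control array 1 lay low for *Suv39h2* as it did for *Kdm2b*.

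Of 6 H3K36 methyltransferase genes 4 passed the filter and 0 were called. In the limma fit to all genes 2 of 6 had an unadjusted p under 0.05, against the same 18.4%. All 6 differences lay above 0 (median 0.13, against 0.03 over all genes). Of 10 readers of H3K36 methylation 3 passed the filter, of which 1 rose and 0 fell. It was *Dnmt3b*, a DNA methyltransferase whose PWWP domain binds the mark, with 7.70, 7.74 and 7.76 in control and 8.29, 8.18 and 7.99 in knockdown cells, 1.34-fold higher (limma adjusted p = 0.0477). That call was kept in 1 of 6 fits with an array left out, the one without knockdown array 3.

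**Figure D4:**
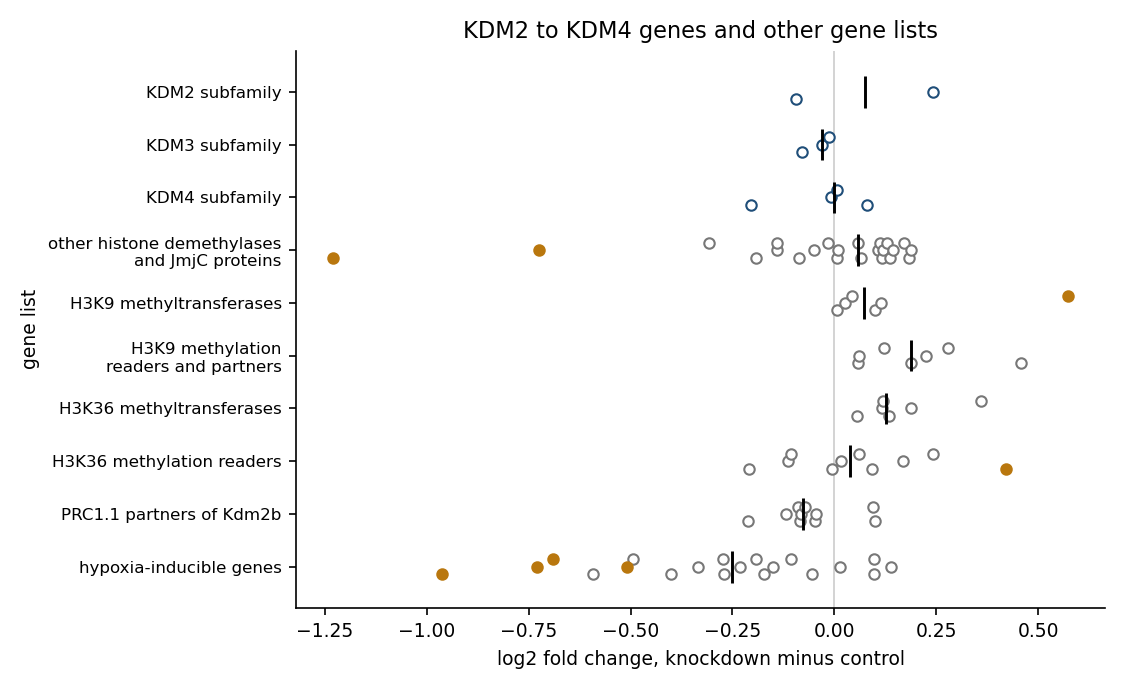
Difference between knockdown and control on the log2 scale (x axis) of every gene measured, by list (y axis), with the 3 demethylase subfamilies first. Filled orange points passed the limma test and black ticks are list medians, from −0.25 for the hypoxia-inducible genes to 0.19 for the readers of H3K9 methylation.

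The hypoxia-inducible genes were set beside *Kdm3a*, *Kdm4b* and *Kdm4c* because factors of that response are known to act on all of them. This list too was chosen with earlier results of these data known. Of 20 genes listed and measured (not counting the demethylases), 16 passed the filter. Of these 0 rose and 4 fell, against 2.39% and 5.16% of all genes tested. Of the 20 differences 16 lay below 0 (median −0.25, against 0.03 over all genes). The 4 falls became 1 with no filter on variation, with a filter on dim genes or with arrays centred on the median, and 2 after a second quantile normalisation or with an intensity trend and robust prior. *P4ha2*, a subunit of the prolyl hydroxylase that matures collagen, had log2 values of 10.70, 10.57 and 10.84 in control and 9.95, 9.94 and 10.16 in knockdown cells. It fell by 0.69 (95% interval −0.92 to −0.46, limma adjusted p = 0.00622), a call lost without control array 3. *Slc2a1*, a glucose transporter, fell by 0.51 (limma adjusted p = 0.0454), *Bnip3*, a mitophagy receptor, by 0.73 (limma adjusted p = 0.0403) and *Aldoc*, a glycolytic aldolase, by 0.96 (limma adjusted p = 0.0477), with groups that overlapped for *Aldoc*. These 3 calls were each kept in 2 of 6 fits with 1 array left out and lost without control array 1 or 3 or knockdown array 1 or 2. *P4ha2* kept its call in the 5 settings just named, *Slc2a1* in 2 of them and *Bnip3* and *Aldoc* in 0. Beside them *Kdm3a* and *Kdm4c* had differences of −0.013 and −0.0092, and *Kdm4b* one of −0.20. Their difference from the list was not tested.

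The core of the DNA element bound by hypoxia-inducible factors is ACGTG or GCGTG. To show where these letters stand, the 250 bases before a RefSeq start are given for 3 genes, with the core on either strand in capitals. They are *Kdm3a* and *Kdm4c*, whose differences lay near 0, and *P4ha2*. For *Kdm3a* and *Kdm4c* the start with more CpG was taken (20 against 0 and 19 against 0).
Kdm3a, chr6:71632918-71633167 (GRCm38.p6, minus strand): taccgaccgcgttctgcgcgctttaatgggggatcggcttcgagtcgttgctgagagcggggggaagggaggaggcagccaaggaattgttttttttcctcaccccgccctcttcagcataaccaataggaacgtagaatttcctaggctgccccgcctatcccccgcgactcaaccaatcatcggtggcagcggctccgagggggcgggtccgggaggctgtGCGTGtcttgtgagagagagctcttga
Kdm4c, chr4:74251629-74251878 (GRCm38.p6, plus strand): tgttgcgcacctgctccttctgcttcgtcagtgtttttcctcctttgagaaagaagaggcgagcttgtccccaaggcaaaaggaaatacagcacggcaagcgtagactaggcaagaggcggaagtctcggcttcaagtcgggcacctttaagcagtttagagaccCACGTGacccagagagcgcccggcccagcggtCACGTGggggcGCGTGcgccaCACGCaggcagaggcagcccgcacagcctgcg
P4ha2, chr11:54100674-54100923 (GRCm38.p6, plus strand): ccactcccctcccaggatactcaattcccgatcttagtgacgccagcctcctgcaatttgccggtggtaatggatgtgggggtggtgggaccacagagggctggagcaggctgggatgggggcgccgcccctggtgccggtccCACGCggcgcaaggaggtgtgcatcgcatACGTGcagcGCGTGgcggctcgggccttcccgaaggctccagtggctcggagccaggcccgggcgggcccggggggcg
The *Kdm3a* window holds GCGTG once, that of *Kdm4c* ACGTG 4 times and GCGTG 2 times over both strands, where CACGTG is read on each strand, and that of *P4ha2* 1 and 2. Either core occurs in 38.6% of the 32851 windows, so these matches are a description of the letters and mark no site. Those windows were not chosen by CpG, and both cores contain CG, so that share is not a like comparison. *Kdm3a* and *Kdm4c* each have a second RefSeq start whose window holds 0 of both. A window before a RefSeq start was taken for 6 of the 9 genes, and none was taken for *Kdm2a*, *Kdm3b* and *Kdm4b*.

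The genes whose log2 values followed *Kdm2b* most closely over the 6 arrays were *Snx5*, a sorting nexin (Pearson r = 0.999), *Tmem128*, a membrane protein (0.998), and *Dhrs13*, a short-chain dehydrogenase family member (0.996). Their differences between groups were 0.36, 0.27 and 0.29, and none passed the limma test. These correlations contain the difference between the groups, and 587 of the 9969 genes compared had an r over 0.9 with *Kdm2b*.

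Across 16 other settings of the analysis the picture of small differences stayed, and 131 of 144 values kept the sign of the difference. The other 13 belonged to *Kdm3a*, *Kdm3b*, *Kdm4a* and *Kdm4c*, whose differences were nearest to 0.

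**Figure D5:**
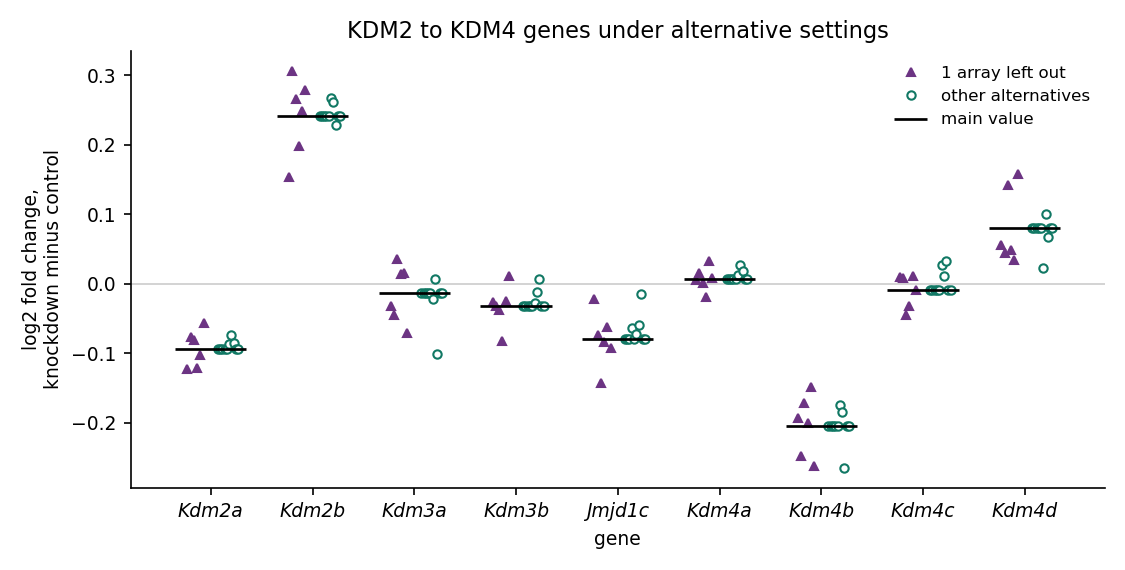
Difference between knockdown and control on the log2 scale (y axis) of each of the 9 genes (x axis) in the reported fit (black line) and under 16 alternatives, with purple triangles for fits with 1 array left out and green circles for the others. *Kdm2b* stays above 0 and *Kdm4b* below 0 under all 16.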

How the data were processed

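Affymetrix Mouse Gene 1.0 ST arrays were hybridised with DNA made from 200 ng of RNA of each of 6 N2A cultures (3 control, 3 *Paupar* knockdown). The authors processed them by RMA, which includes background correction and quantile normalisation, so the deposited values are log2 expression. The tool versions were not stated in the sources used here. Of 35556 clusters, 21789 carried 1 symbol in the platform annotation, 21698 of them matched to RefSeq (GRCm38.p6), and 1621 with several and 12146 with no symbol were left out. The cluster with the highest mean was kept per gene, giving 19938 genes. Following the study's variance cut-off, the lower 50% by interquartile range were removed, leaving 9969. The measure and the choice of cluster were made here.

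Knockdown was compared with control in limma 3.58.1 (R 4.3.3; lmFit, eBayes, no covariates, Benjamini-Hochberg, threshold 0.05). Differences, moderated SEs and 95% intervals come from the fit to all named genes. Adjusted p-values come from that fit for genes below the filter, and from the filtered fit where the text says so and for all other lists. Within-array pair differences were compared by exact permutation tests over arrays. Named were all 9 demethylase genes, each called gene of the 7 other lists (82 of 86 genes measured) and of the marker lists, and the 3 genes most like the demethylase gene of smallest p. The genes and lists were chosen with earlier results of these data known. The steps were tested on simulated data. Alternatives were other filters, clusters, normalizations, array weights, prior, a replicate block and leaving out each array.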

Additional observations from a re-analysis of the deposited data

How the results depend on the processing

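No demethylase gene was called in 15 of 16 alternatives, but most of these tested few of the 9. Where a filter on variation was used, 1 to 4 of the 9 entered the test. With the filter on dim genes 8 did, and with no filter 9. With limma array weights, which ran from 0.289 to 4.44, 1 was called (*Kdm4b*, −0.26, adjusted p = 0.00793, against up to 0.411 in the others that tested it), but so were 5561 genes in all, 55.8% of those tested. Genes called numbered 752 as reported, 0 with all clusters kept, and from 112 (without control array 3) to 1239 (without knockdown array 3) with 1 array left out. They were between 612 and 1008 in the other alternatives. Whether arrays of the same replicate number belong together cannot be told from these values. Correlations of deviations from the group means were −0.288, 0.062 and 0.075 for equal numbers and from −0.316 to 0.374 for unequal ones. The replicate block gave 680 called genes and 0 demethylase genes. It gave 5 falls among the hypoxia-inducible genes in place of 4, and no call of *Dnmt3b* (0 readers of H3K36 methylation in place of 1). Signs turned for *Kdm4c* (0.028 after a second quantile normalisation, 0.011 with arrays centred on the median, 0.033 with array weights), *Kdm3a* (0.0065, centred) and *Kdm3b* (0.0077, array weights). With 1 array left out they ranged from −0.045 to 0.012 for *Kdm4c*, −0.071 to 0.036 for *Kdm3a*, −0.019 to 0.033 for *Kdm4a* and −0.082 to 0.012 for *Kdm3b*. *Kdm2b* ranged from 0.15 to 0.31, *Kdm4b* from −0.26 to −0.15. The 2 unadjusted limma p-values under 0.05 fell to 0 with all clusters kept, with the block, and without control array 1 or 3 or knockdown array 1 or 2. The cause of these changes was not tested. With 3 arrays a group, precision was limited.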
